A study of Homo sapiens with 40 samples.

Results

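The BCL2 family decides whether a cell keeps its outer mitochondrial membrane intact. Its anti-apoptotic members BCL2, BCL2L1 (BCL-XL), BCL2L2 (BCL-W) and MCL1 bind and hold the pore-forming effectors, such as BAK1, and the BH3-only members, such as BCL2L11 (BIM), BID, BAD, BMF and BIK, which release or activate those effectors. Senescent cells are known for their resistance to apoptosis, and drugs that block BCL2 and BCL-XL are used experimentally to kill them. The chromatin of these 10 genes, of 20020 protein-coding genes annotated in GENCODE 44, was examined in EndoC-βH3 cells. EndoC-βH3 is a human beta-like line made from fetal pancreas with excisable immortalizing transgenes. Non-senescent cells carried the transgenes, and senescent cells were treated with 4-hydroxytamoxifen for 3 weeks, which excises them, so the treatment, the loss of the transgenes and the senescent state cannot be told apart. The labels give both groups a WT genotype. H3K27ac, an acetylated histone found at active regulatory DNA, and CTCF, an architectural protein that binds DNA, were profiled in 3 non-senescent and 3 senescent libraries each, and H3K4me1 and Rb in 2 and 2.

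Peaks were taken as promoter peaks within 2 kb of any start site of a member, as gene body peaks elsewhere in its span, and as distal peaks where the member owned the nearest protein-coding start site within 100 kb. The members held 42 of 51489 H3K27ac peaks and 31 of 51457 CTCF peaks, together with 34 of the 27962 regions in the 2 enhancer lists. No region of the 2435 in the Rb list was assigned to a member. The nearest lay 187632 bp from the canonical BMF start site. How many of all genes hold an Rb region by this rule was not counted. The absence is therefore not shown to be particular to this family. Values are the authors' mean normalized counts over 6 libraries and log2 fold changes of senescent over non-senescent cells, ± standard error (SE), from a test fitted to all peaks. Values for each library were not analysed here, so overlap between the libraries of the states cannot be given.

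The beta cell genes used to check the line all carried promoter H3K27ac, from 2453 normalized counts at NKX6-1 to 16247 at PAX6. Of the markers of other cells, COL1A2, PECAM1 and PRSS1 had no promoter peak and PTPRC, a leukocyte gene, had a weak one of 120 counts.

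Of the 42 H3K27ac peaks of the family, 4 were gained and 7 lost in senescent cells by the study's thresholds, which are a fold change above 1.5 and an adjusted p below 0.05. These are 9.52% and 16.7% of the family's peaks, beside 9.47% gained and 13.1% lost among all peaks, so the family as a whole was close to the background. By role, the shares of gains were alike and those of losses differed. The 19 peaks of the anti-apoptotic genes held 2 gains (10.5%) and no loss, and the 3 peaks of BAK1 held 1 loss. The 20 peaks of the BH3-only genes held 2 gains (10%) and 6 losses (30%). These losses lay at BCL2L11, BID and BMF, while BAD and BIK had none. Over peaks, the median log2 fold change was 0.17 for the anti-apoptotic genes and −0.34 for the BH3-only genes, against 0.01 for all peaks. BCL2L1 alone held 13 of the 19 anti-apoptotic peaks and both of their gains, and BCL2L11 held 9 of the 20 BH3-only peaks. By the promoter peak with the highest mean count, BH3-only genes had both the highest value, 0.61 at BIK, and the lowest, −0.65 at BID. The difference between roles was not tested, since peaks of 1 gene share their locus and libraries. A further 8 peaks were higher and 2 lower at an adjusted p under 0.05 without reaching the fold change, as were 9.42% and 7.19% of all H3K27ac peaks. The plot of H3K27ac fold changes by gene shows all 42.

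**Figure D1:**
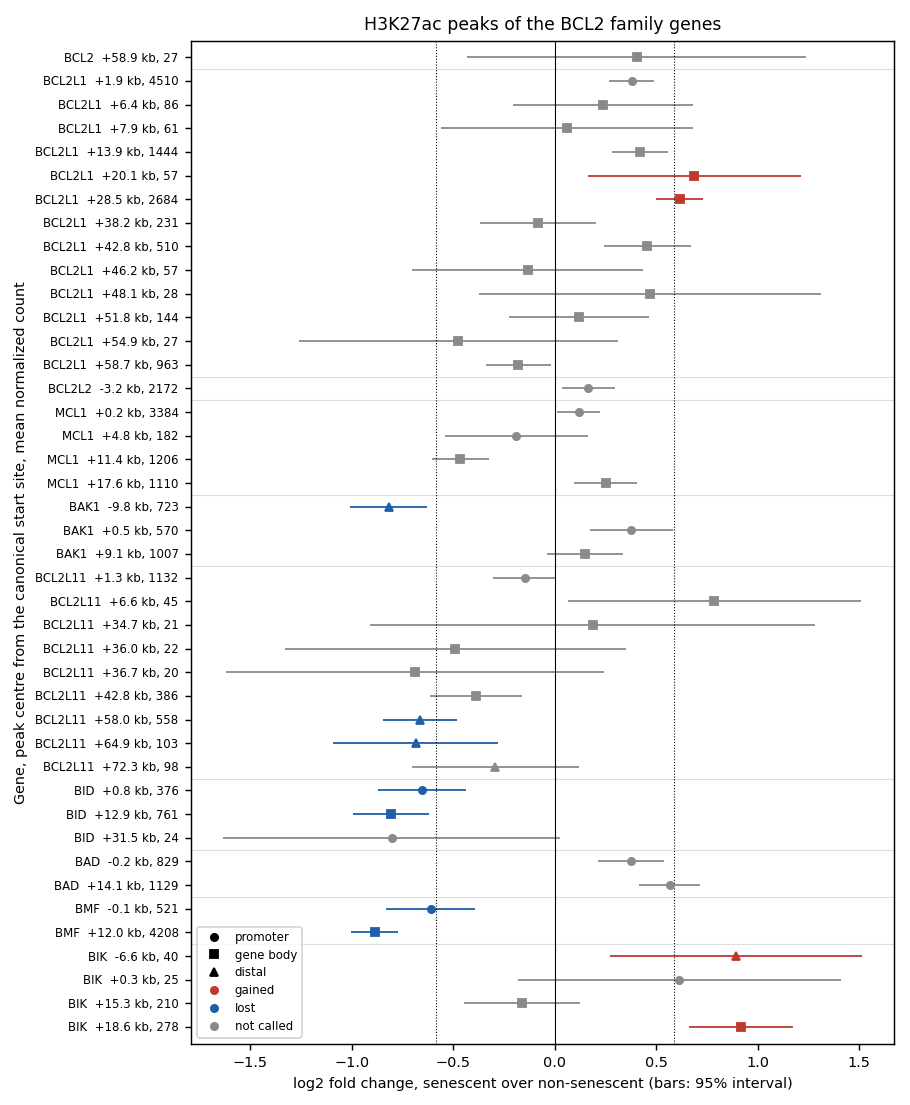
Log2 fold change of each of the 42 H3K27ac peaks, senescent over non-senescent, with 95% intervals; row labels give the gene, the distance of the peak centre from the canonical start site and the mean normalized count, and dotted lines mark a fold change of 1.5. The 7 lost peaks (blue) belong to BAK1, BCL2L11, BID and BMF, and the 4 gained peaks (red) to BCL2L1 and BIK.

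BCL2L1, which encodes BCL-XL, had the most H3K27ac peaks of the family. It held 13, 12 of them in the gene body, and 9 of the 13 had a positive fold change. Its promoter peak at chr20:31717347-31724629 (hg38) had 4510 counts, or 619 per kb of peak, more per kb than 99.2% of the 13525 genes with a promoter peak. This promoter had a log2 fold change of 0.38 ± 0.06 (adjusted p = 5.82e-10), a 1.30-fold difference that did not reach the threshold. The widest gained peak of the gene was downstream in the gene body, a domain 16021 bp wide at chr20:31686309-31702329, centred 28.5 kb from the canonical start site. It had 2684 counts and a log2 fold change of 0.62 ± 0.06 (95% interval 0.50 to 0.73, adjusted p = 5.07e-23), which is 1.53-fold higher. A small peak next to it, chr20:31702332-31703254, with 57.5 counts, was also gained, at 0.69 ± 0.27 (adjusted p = 0.0291). Both gained peaks lay over no exon of the canonical transcript and overlapped the span of BCL2L1-AS1, a gene whose name marks it as antisense to BCL2L1. A broad peak closer to the promoter, with 1444 counts, had a log2 fold change of 0.42 ± 0.07, short of the threshold. At the end of the gene, the 963-count peak over the last exon had −0.18 ± 0.08 and was not called (adjusted p = 0.0697). Its nearest protein-coding start site is that of COX4I2. Fold changes along the gene were thus not all positive.

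MCL1 encodes a short-lived anti-apoptotic protein. Its promoter peak at chr1:150576942-150581927 was the densest of the family at 679 counts per kb, above 99.6% of genes, and had 3384 counts. No change was called there, and the log2 fold change of 0.12 ± 0.05 had a 95% interval of 0.01 to 0.22, which excludes a change of 1.5-fold in either direction. Within the MCL1 span, 2 broad peaks had opposite signs. The peak 11.4 kb downstream of the start site, at chr1:150565320-150571099 with 1206 counts, had −0.47 ± 0.07 (adjusted p = 1.48e-09). The peak at the end of the span, which also lies in ADAMTSL4, had 1110 counts and 0.25 ± 0.08 (adjusted p = 0.00586). Neither reached the fold change of 1.5.

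BCL2L2, which encodes BCL-W, had a single peak, at chr14:23299259-23307958, which also covers the promoters of BCL2L2-PABPN1, HOMEZ and PPP1R3E. It had 2172 counts and 0.17 ± 0.07 (adjusted p = 0.0359), below the fold threshold, and the share of BCL2L2 in it cannot be told apart from that of its neighbours. BCL2 itself had no H3K27ac peak at its promoter. The 1 peak assigned to it lay in the gene body 58.9 kb from the start site, with 27.1 counts and a log2 fold change of 0.40 ± 0.43 (adjusted p = 0.476). The interval of that peak, −0.43 to 1.24, is too wide to show or exclude a 1.5-fold change.

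BAK1 encodes BAK, an effector that forms pores in the outer mitochondrial membrane. Its promoter, chr6:33577998-33581630 with 570 counts, had a log2 fold change of 0.38 ± 0.10 (adjusted p = 0.00117), not enough for a call. The peak that reaches into its last exon had 1007 counts and 0.15 ± 0.09 (adjusted p = 0.209), although an enhancer was listed there in senescent cells alone. H3K27ac was lost upstream of the start site, centred at −9.81 kb, at chr6:33588465-33591705, in a peak of 723 counts that fell to 0.567-fold of the non-senescent level (log2 fold change −0.82 ± 0.10, adjusted p = 1.04e-15). This distal peak overlaps GGNBP1 and LINC00336, and it belongs to BAK1 only by the nearest protein-coding start site.

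Among the BH3-only genes, BMF, whose protein is held by the actin cytoskeleton until it is released, had the lowest fold change of the family. The gene body peak at chr15:40091159-40102573, 11415 bp wide and with 4208 counts, fell to 0.541-fold of the non-senescent level (log2 fold change −0.89 ± 0.06, 95% interval −1.002 to −0.772, adjusted p = 9.47e-49). It was the single peak of the family that also passed a test against a fold change of 1.5 (adjusted p = 1.76e-05). The promoter peak of BMF, chr15:40107742-40110277 with 521 counts, was lost as well, at −0.61 ± 0.11 (adjusted p = 5.21e-07). The gene body peak was listed as 1 enhancer in non-senescent cells and as 2 shorter ones in senescent cells, so the region was listed in both states.

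BID links death receptors and caspase-8 to mitochondria. It lost H3K27ac at its promoter, chr22:17772189-17775177 with 376 counts (−0.65 ± 0.11, adjusted p = 3.99e-08), and at a gene body peak, chr22:17759774-17763441 with 761 counts (−0.81 ± 0.10, adjusted p = 7.73e-16). The gene body peak lay 12.9 kb downstream of the start site over no exon of the canonical transcript, and no enhancer was listed there. With the trend of fold change on GC content removed, the promoter value was −0.54 and no longer reached a fold change of 1.5, while the gene body value was −0.81. A weak peak of 24.1 counts at start sites of shorter transcripts had −0.80 ± 0.42 and was not called (adjusted p = 0.121).

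BID and BMF were the members whose promoter H3K27ac was called, so the sequence upstream of their RefSeq start sites is shown, without the bases that GENCODE 44 annotates as exons. Both are on the minus strand of hg38 and are written 5′ to 3′, with CpG dinucleotides in capitals. The BID stretch, chr22:17774496-17774639, holds 20 CpG in 144 bases and is 84.0% G or C, and the BMF stretch, chr15:40108893-40109129, holds 24 in 237 bases and is 64.6% G or C.
BID: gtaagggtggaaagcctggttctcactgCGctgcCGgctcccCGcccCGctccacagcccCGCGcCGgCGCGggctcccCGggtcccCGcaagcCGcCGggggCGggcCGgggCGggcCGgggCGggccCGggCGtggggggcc
BMF: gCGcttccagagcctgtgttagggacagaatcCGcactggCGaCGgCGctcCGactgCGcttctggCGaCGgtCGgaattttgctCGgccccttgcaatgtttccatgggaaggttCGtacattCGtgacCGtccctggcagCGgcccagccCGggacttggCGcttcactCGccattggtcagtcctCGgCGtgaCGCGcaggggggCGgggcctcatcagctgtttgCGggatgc

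RefSeq promoter windows of 300 bases (GRCh38.p14) were matched for 7 members, and 4 motifs were searched in them on both strands. The E2F motif TTTNNCGC was found in BCL2L1 alone, beside 6.90% of all 27305 windows. The FOXO motif GTAAACA was found in BCL2L11 alone, beside 3.41% of all windows. The AP-1 motif TGANTCA, held by 7.76% of windows, and a p53 site without spacer, held by 0.0183%, were found in none of the 7. A match in these letters is a description of the window and not a bound site.

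BCL2L11 encodes BIM, a BH3-only protein that binds all the anti-apoptotic members. Its promoter at chr2:111119902-111124468, with 1132 counts, had a log2 fold change of −0.15 ± 0.08 and was not called (adjusted p = 0.120, 95% interval −0.30 to 0.00). The losses were downstream of the gene. A peak 58.0 kb from the start site, chr2:111177163-111180635 with 558 counts, had −0.66 ± 0.09 (adjusted p = 1.22e-11). Another 64.9 kb away, chr2:111184963-111186688 with 103 counts, had −0.68 ± 0.21 (adjusted p = 0.00382). The second overlapped an enhancer listed in non-senescent cells alone, as did a peak 72.3 kb away that was not called (−0.29 ± 0.21). The last peak of the gene body, with 386 counts, had −0.39 ± 0.12 (adjusted p = 0.00292), so that all 4 peaks from 42.8 kb onward had negative values. Positive values lay at 2 of the 9 peaks, both weak and not called. The peak 6.6 kb into the gene, with 45.2 counts at an enhancer of the senescent list alone, had 0.79 ± 0.37 (adjusted p = 0.0755). The peak 34.7 kb into the gene had 20.9 counts and 0.19 ± 0.56 (adjusted p = 0.819). All 9 peaks of BCL2L11 overlap the span of MIR4435-2HG, a long noncoding RNA gene.

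BAD, whose protein is controlled by phosphorylation downstream of growth factors, had positive values at both of its promoter peaks. The stronger, chr11:64268293-64272840 with 1129 counts, was centred 14.1 kb downstream of the canonical start site, within 2 kb of another BAD start site. It also overlaps PLCB3 and an enhancer listed in both states. Its log2 fold change of 0.57 ± 0.08 (adjusted p = 2.74e-12) was just below the log2 threshold of 0.58. This peak became a gain when the GC trend was removed. The other, at the canonical start site, had 829 counts and 0.37 ± 0.08 (adjusted p = 4.57e-05). Both peaks also lie at promoters of GPR137.

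BIK, whose protein sits at the endoplasmic reticulum, was the BH3-only gene with called gains. The peak at the end of the gene, chr22:43128191-43130530 with 278 counts, was 1.89-fold higher in senescent cells (log2 fold change 0.92 ± 0.13, adjusted p = 4.31e-11), and it overlapped an enhancer in both lists. The gained peak at the gene's end runs past the BIK span, and its nearest protein-coding start site is that of MCAT. A weak distal peak centred at −6.57 kb, chr22:43103753-43104598 with 39.9 counts, was gained at 0.90 ± 0.32 (adjusted p = 0.0149). The BIK promoter carried little H3K27ac, with 24.8 counts and 41.7 per kb, a density exceeded by all but 2.31% of genes, and 0.61 ± 0.41 there was not called (adjusted p = 0.230). A gene body peak of 210 counts beside the gained one had −0.16 ± 0.15 (adjusted p = 0.392).

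**Figure D2:**
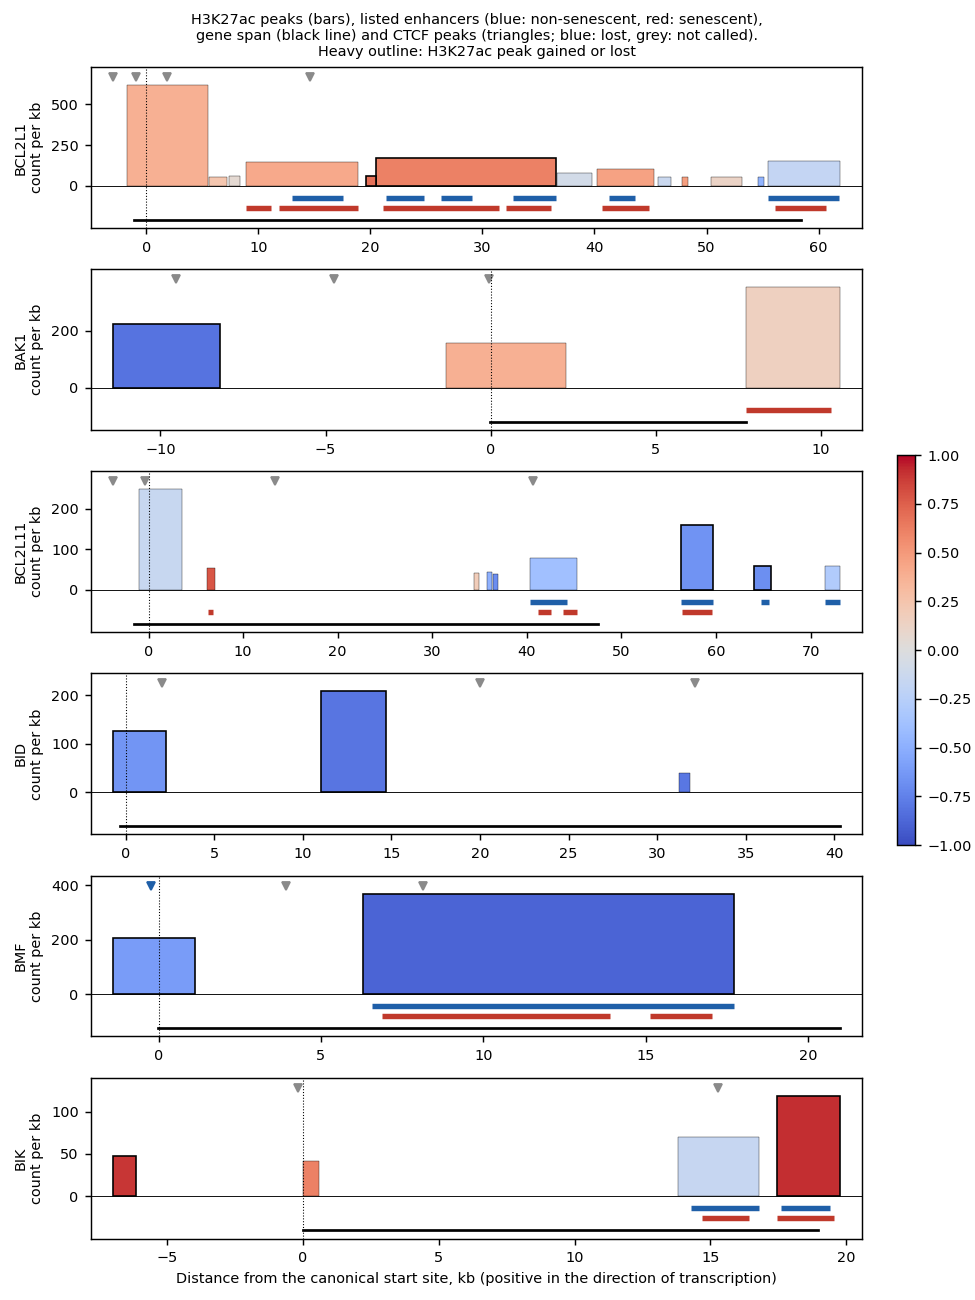
H3K27ac peaks at 6 members as bars of mean normalized count per kb against distance from the canonical start site in kb, coloured by log2 fold change, with listed enhancers, gene spans and CTCF peaks. The widest gained domain is in BCL2L1 (16021 bp) and the widest lost one in BMF (11415 bp); 12 of the 16 peaks over a listed enhancer overlapped regions of both states' lists.

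By promoter peak, 1 per gene by highest mean count, 9 members could be read and none was gained while BID and BMF were lost, which is 22.2% of them. Among the 13525 protein-coding genes with such a peak, 3.34% were gained and 9.12% lost. The median log2 fold change was 0.17 over the 9 members and 0.04 over all genes. In order of H3K27ac per kb the members ran from MCL1 and BCL2L1 through BCL2L2, BAD and BCL2L11, which lay between 248 and 250 counts per kb, to BMF at 205, BAK1 at 157, BID at 126 and BIK at 41.7. BAD is placed here by its peak 14.1 kb downstream of the canonical start site, while its peak at that site had 227 counts per kb. The spread of these levels over libraries was not analysed here, so which neighbours in the order differ cannot be said.

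Of 40 further apoptosis genes, 32 had a promoter H3K27ac peak, with a median log2 fold change of 0.07. Of these 1 was gained (3.1%) and 3 lost (9.4%), close to the 3.34% and 9.12% of all genes with such a peak. These counts leave out 1 gene of the list. FAS, a death receptor, was gained at 1.30 ± 0.48 (adjusted p = 0.0203) on a peak of 19.2 counts. That peak is also the promoter peak of ACTA2, so the share of FAS in it cannot be told apart. BIRC5, which encodes survivin, a protein of the mitotic chromosomal passenger complex as well as an inhibitor of apoptosis, had the largest loss at −2.15 ± 0.19 (adjusted p = 2.30e-27). HRK, a BH3-only gene, fell by 1.49 ± 0.28 (adjusted p = 1.61e-06), and BIRC3, which encodes the ubiquitin ligase cIAP2, fell by 0.65 ± 0.23 (adjusted p = 0.0154), all on the log2 scale. None of the 8 genes of the apoptosome and mitochondrial release was called, with values from −0.35 to 0.27. Most genes were not called either, 11839 of the 13525 with a promoter peak. The lowest of the 8 values, at HTRA2, is from a peak that is also the promoter peak of AUP1. The plot of promoter H3K27ac against mean count places both groups among all genes.

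**Figure D3:**
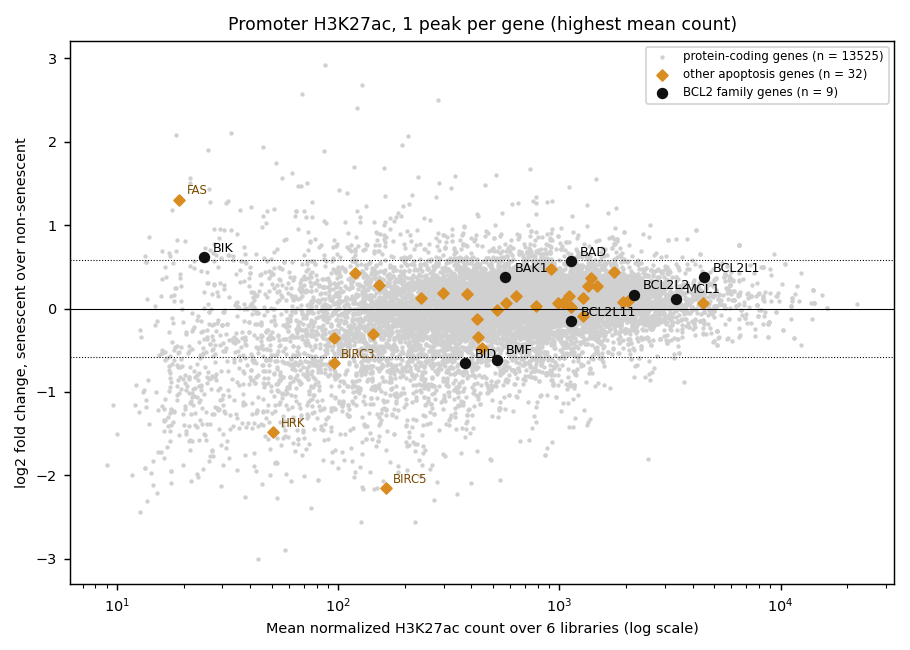
Log2 fold change of promoter H3K27ac against mean normalized count on a log scale for 13525 protein-coding genes (grey), 32 other apoptosis genes (orange) and 9 BCL2 family genes (black); dotted lines mark a fold change of 1.5. BID and BMF lie below the lower line, and BIK lies above the upper one at 24.8 counts without being called.

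CTCF was called at fewer sites. The study called CTCF changes among peaks filtered for the CTCF motif, a filter that was not applied here. Of the 31 CTCF peaks of the family none was gained and 2 were lost at an adjusted p under 0.2 in the authors' DESeq2 fit, and at an unadjusted p under 0.05 none was higher and 5 were lower, beside 7.63% and 8.33% of all CTCF peaks. The lost peaks are 6.45% of the family's, beside 2.29% gained and 3.28% lost among all CTCF peaks and 4.42% lost among those at promoters of protein-coding genes. The sign of these values was read as for H3K27ac, since the table does not name the numerator. With the opposite sign every gain and loss given here for CTCF, those of all peaks included, would change places. Gains would then outnumber losses among all CTCF peaks, which had 1690 losses and 1180 gains as read here. The paper reports the reverse for senescent cells, with more sites of reduced than of gained CTCF binding among peaks with the motif. The adjusted p is blank for 6 of the 31, gene body peaks of BCL2, BCL2L1, BID, BAD, BMF and BIK with 5.62 to 16.8 counts. The BAD promoter peak at chr11:64286331-64286759, also at a promoter of GPR137, had 27.8 counts and −0.95 ± 0.40 (adjusted p = 0.158). The BMF promoter peak at chr15:40108682-40109561 had 68.8 counts and −0.73 ± 0.30 (adjusted p = 0.150), and it lies inside the lost H3K27ac promoter peak. Both calls ended at an adjusted p under 0.05 and when the GC trend was removed (adjusted p = 0.515 at BAD and 0.589 at BMF).

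Fewer promoter CTCF values were negative once the GC trend was removed. Of the 17 promoter CTCF peaks of the family 16 had a negative fold change, with a median of −0.32 and a median GC content of 61.2%. Among all 11061 promoter CTCF peaks, 70.3% were negative, with a median of −0.17. With the GC trend removed, 12 of the 17 (70.6%) were negative with a median of −0.09, and 51.4% of all promoter peaks were negative with a median of −0.01. All promoter CTCF peaks had a median GC content of 59.2%, against 46.4% over all CTCF peaks. Removing the trend therefore cannot separate base content from promoter position. The paper reports reduced binding at most of its changed CTCF sites on promoters. What part base content has in the CTCF values was not tested further.

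The strongest CTCF peaks of the family showed no called change. At the BCL2L1 promoter, a peak of 1208 counts had −0.07 ± 0.09 (adjusted p = 0.727, 95% interval −0.24 to 0.11). At the end of the MCL1 span, a peak of 1021 counts had −0.29 ± 0.09 (adjusted p = 0.0496), short of the fold threshold. BCL2, which lacked promoter H3K27ac, had CTCF at its promoter, with 131 counts and −0.53 ± 0.19 (adjusted p = 0.0938). A BCL2L11 peak upstream of its start sites had 308 counts and −0.01 ± 0.14 (adjusted p = 0.974), and the 463-count peak upstream of BAK1 had −0.13 ± 0.11 (adjusted p = 0.515). The promoter peak of BAK1, with 95.5 counts and −0.11 ± 0.26, was not called. The stronger BID promoter peak, with 266 counts and −0.0044 ± 0.14, was centred 32.1 kb downstream of the canonical start site. It lay within 2 kb of another BID start site. The weaker BID promoter peak overlapped the lost H3K27ac promoter peak and had −0.23 ± 0.35 (adjusted p = 0.751). Neither BID peak was called. Nor was the stronger of the BMF promoter peaks, with 77.6 counts and −0.40 ± 0.24 (adjusted p = 0.353). BCL2L2 had 322 counts and −0.28 ± 0.18 at a peak shared with HOMEZ and PPP1R3E. At BIK, −0.69 ± 0.34 at a promoter peak of 40.0 counts was not called (adjusted p = 0.254).

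**Figure D4:**
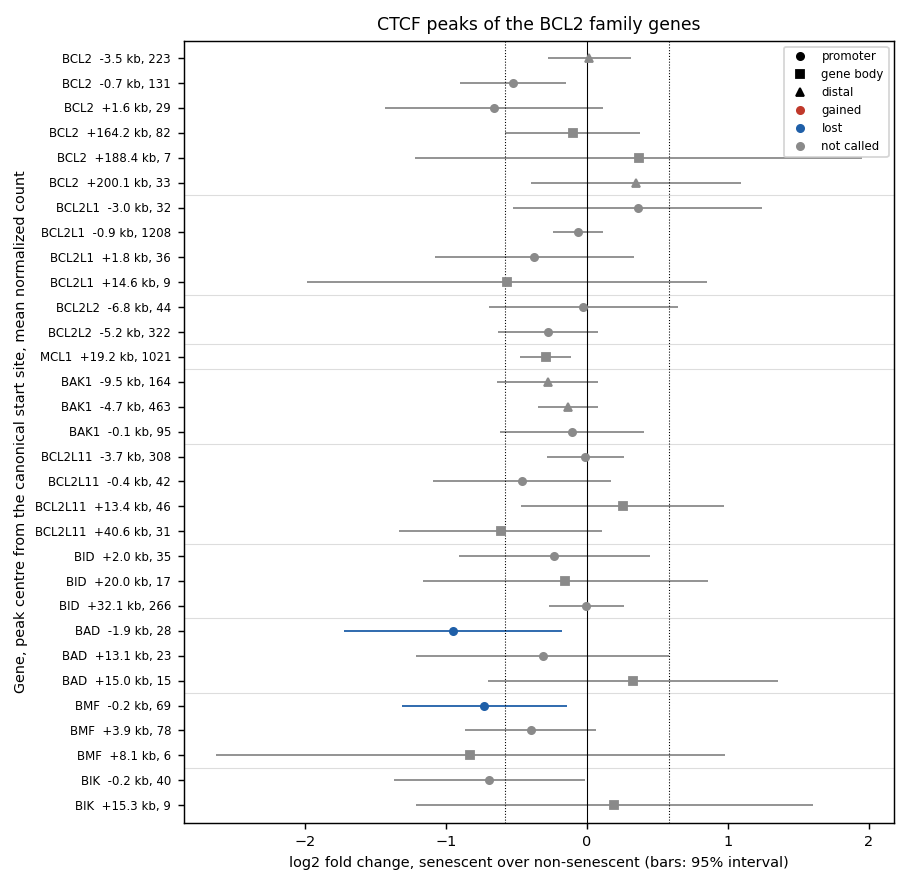
Log2 fold change of each of the 31 CTCF peaks, senescent over non-senescent, with 95% intervals; row labels give the gene, the distance of the peak centre from the canonical start site and the mean normalized count. The 2 lost peaks (blue) are at the BAD and BMF promoters, and no peak was gained.

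Neither lost CTCF peak holds a match to the CTCF core motif, which 4 of the 31 peaks hold, beside 6970 of all 51457. The 4 sites are shown because they are the matches to this core pattern in the family's CTCF peaks, and they were chosen after their values were seen. The study's own motif search was not repeated, so other peaks may hold a CTCF motif by that search. The MCL1 site itself lies beyond the MCL1 span, in a peak that overlaps MCL1 and ADAMTSL4. Each is written 5′ to 3′ on the strand of the motif, with the core in capitals and 9 bases on either side.
BCL2, chr18:63323199-63323228, minus strand: gtgaaacaaCCAGCAGGTGGCgaaaactgg
BCL2L1, chr20:31725826-31725855, plus strand: tttgggagcCCAGCAGAGGGCagataaact
MCL1, chr1:150560081-150560110, minus strand: gggcctgtaCCACCAGGGGGCaatgtggag
BID, chr22:17742585-17742614, plus strand: cccccacagCCACCAGAGGGCagtgcaacc

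The peaks that hold them had log2 fold changes of 0.02 ± 0.15 at BCL2, 0.36 ± 0.45 at BCL2L1, −0.29 ± 0.09 at MCL1 and −0.0044 ± 0.14 at BID, and none was called.

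Where CTCF and H3K27ac peaks of a member overlapped, in 19 pairs at 9 genes, the signs of both fold changes were the same in 8. In 17 of the 19 pairs the CTCF value was negative, and in 7 of these H3K27ac was negative too. At the BMF promoter both were lost. At the BAD promoter CTCF was lost while the H3K27ac peak it overlaps had 0.37 ± 0.08, and at BCL2L1 the CTCF value of −0.07 ± 0.09 stood beside 0.38 ± 0.06 for H3K27ac.

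The enhancer lists held 16 regions of the family in non-senescent cells, at 6 genes, and 18 in senescent cells, at 7 genes. Of these, 14 and 15 overlapped a region of the other list, which leaves 12.5% and 16.7% listed in 1 state alone, beside 29.4% and 20.5% of all regions in the lists. The difference was not tested. The 2 regions listed in non-senescent cells alone both lay downstream of BCL2L11. The 3 listed in senescent cells alone lay in BCL2L1, BAK1 and BCL2L11, and none of the H3K27ac peaks under them was called. Enhancers were listed at neither BCL2, BCL2L2 nor BID, so the H3K27ac loss in the BID gene body was outside the listed enhancers, as was the loss upstream of BAK1.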

How the data were processed

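The data were ChIP-seq libraries of EndoC-βH3 cells, each with an input library. Per the study's methods, reads were trimmed with Trim Galore and aligned to hg38 with Bowtie2, and H3K27ac peaks were called with HOMER and CTCF peaks with MACS2 against input. The authors then ran DESeq2 on raw counts in peaks. They deposited 1 table each for H3K27ac and CTCF with the mean normalized count of each peak (a signal value over both states), its log2 fold change with standard error, the test statistic (a score) and the p-value with its adjusted p. The tables hold no column per library, so the fold changes, errors and p-values used here are the authors' own and no library could be left out. Neither table names which state is the numerator. H3K27ac peaks in enhancers of the senescent list alone had a median log2 fold change of 0.54 (2623 peaks) and those of the non-senescent list alone −0.53 (4291 peaks), so positive values were read as higher in senescent cells. No check on enhancer lists was made for CTCF, and its sign was read the same way. By this reading losses outnumber gains among all CTCF peaks, the direction that the paper reports for its peaks with the motif.

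A peak counted as gained or lost with a fold change above 1.5 and an adjusted p below 0.05 for H3K27ac or 0.2 for CTCF. Intervals are 95% normal intervals from the deposited standard error. Peaks were assigned from GENCODE 44 by an overlap of at least 1 bp, starts were written 1-based, and the base content of peaks was read from hg38 with pysam 0.24.0. Named were all members, with each one's promoter peak of the highest mean count, every called peak and the strongest gene body or distal peak, and the pathway genes called at their promoter. The members and lists were chosen with earlier results of these data known. After the values were seen, but for a reason unrelated to them, 1 gene was left out of the list of other apoptosis genes and of its counts. It is not reported here, so those counts are not a share of the whole list. Enhancer regions are the sites of H3K27ac and H3K4me1 outside promoters, listed by state, and Rb regions come from a comparison of senescent with non-senescent cells, both as deposited by the authors. The adjustment, threshold test and nearest-gene steps were tested on simulated data. Whether the libraries of a state came from separate cultures is not stated, so p-values measure the spread between these libraries. The depth of each library was not analysed here, and counting error and replicate error are both within the deposited standard errors.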

Additional observations from a re-analysis of the deposited data

How the results depend on the processing

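No paired analysis was possible because the deposited tables hold no column per library, and for the same reason no library could be left out. The 4 gained and 7 lost H3K27ac peaks of the BCL2 family genes became 0 and 0 with a fold change above 2, and 0 and 1 when each peak was tested against a fold change of 1.5, with the BMF gene body peak as the 1 left. With an adjusted p under 0.01 there were 2 gained peaks. The 2 lost CTCF peaks became 0 with an adjusted p under 0.05, 0 with a fold change above 2, 0 in the test against a fold change of 1.5, 0 among peaks with a CTCF core site, 0 with the GC trend removed, 1 with a mean count of at least 50 and 1 without peaks at promoters of other genes, an alternative chosen after seeing the data. Of the other apoptosis genes, 1 gained became 2 with every promoter peak counted and 0 in the test against a fold change of 1.5. The other alternatives stayed within 1.5 times the counts given, and no peak called gained or lost changed direction when the GC trend was removed. With the GC trend removed, 10 of the 13 called peaks stayed called, and the BID promoter H3K27ac peak and both CTCF peaks did not. H3K27ac gains and losses were then 5 and 6. With the nearest gene limited to 50 kb, 5 lost H3K27ac peaks were counted, since both lost BCL2L11 peaks lie farther from its start sites.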
